A study of Sus scrofa with 6 samples.

Results

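The cytosolic ribosomal proteins are the proteins of the small and large subunits of the ribosome outside mitochondria. They were collected here by gene symbol (RPL or RPS followed by a digit, RPLP, or RPSA, without the RPS6K kinases), and each gene was represented by its brightest probe set over all arrays. This gave 64 genes on 96 probe sets, of 6765 genes that had a probe set with a single symbol. Of the 64, 58 were core ribosomal proteins, from a textbook list of 80, with 24 in the small subunit, 31 in the large subunit and 3 in its stalk. Another 5 were second copies encoded by a separate gene (RPL22L1, RPL36AL, RPS27L, RPL7L1 and RPL26L1). The last, RPS19BP1, was taken in by its symbol and encodes a nucleolar protein that binds RPS19 and is not part of the ribosome. A further 8 probe sets that carry a ribosomal symbol together with that of another gene were not used here.

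The samples were pools of subcutaneous fat RNA from male pigs, hybrids of Pietrain and Landrace, and the study compared boars with barrows. Boars kept their testes and barrows, their full brothers, had both removed at 7 days of age, and both were weaned at 30 days and killed at 175 days. From 15 brother pairs (30 pigs), backfat of the middle layer at rib 6 was pooled as RNA from 5 animals of a kind, which gave 3 boar pools and 3 barrow pools on 1 Affymetrix array each. A replicate is thus a pool, so that p-values and SDs speak of pools and say nothing of the spread among individual animals.

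Each ribosome is built from ribosomal RNA and one copy of most of these proteins, so cells make the proteins in nearly matched amounts. Their mRNAs are among the most abundant of most cells and begin with a tract of pyrimidines through which nutrient and insulin signals, via the kinase mTOR, mainly control translation rather than mRNA level. Several members have close paralogs that can take their place in the ribosome, and in fat, as elsewhere, some members are widely used as reference genes.

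The values are MAS5 signals on a linear scale, and differences refer to log2(signal + 16), barrow minus boar. Log2 signals of any pair of arrays correlated at 0.975 or more. The labelled tissue was checked through its markers: the 6 adipocyte markers measured all passed the filter, with ADIPOQ, the adipocyte hormone adiponectin, between 18954 and 23053 in all pools. Both skeletal muscle markers measured lay below the filter on dim probe sets. In bulk tissue, fewer cells of a type and less RNA per cell cannot be told apart.

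Castrated and intact pigs had closely similar signals for nearly the whole family, with 1 exception, RPL22L1, which was lower in barrows. RPL22L1, the paralog of the large subunit protein RPL22, fell by 0.31 on the log2 scale (SE 0.061), which is a 1.24-fold higher signal in boars (95% CI 1.13 to 1.36, limma adjusted p = 0.041). Of the 62 members that passed the filter, 0 rose and 1 fell, or 1.61%, where 1.16% of all 14399 tested probe sets changed in either direction, 0.701% higher and 0.458% lower. The member share is thus near the background. At an unadjusted p under 0.05 there were 2 members, or 3.23%, where 12.2% of all tested probe sets passed. The median difference was -0.012 over the 62 members and -0.014 over all tested probe sets, and the median size of the difference regardless of sign was 0.032 and 0.12.

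RPL22L1 had signals of 9451, 9003 and 9263 in the boar pools and 7648, 7242 and 7481 in the barrow pools. The groups did not overlap, and the lowest boar pool stood well above the highest barrow pool. The means were 9239 ± 225 and 7457 ± 204 (SD, n = 3 each). With the replicate number as a block, the limma adjusted p was 0.027, and RPL22L1 was again the 1 member called, where 2.35% of all tested probe sets were. The call was lost with no filter (limma adjusted p = 0.098), without the intensity trend (limma adjusted p = 0.25), and without any 1 of boar replicate 1 (limma adjusted p = 0.25), boar replicate 2 (limma adjusted p = 0.057), boar replicate 3 (limma adjusted p = 0.20), barrow replicate 1 (limma adjusted p = 0.11) or barrow replicate 3 (limma adjusted p = 0.12). The log2 difference lay between -0.36 and -0.29 under all 16 alternatives, a direction that groups without overlap fix for the left-out pools. RPL22L1 has 1 probe set here, so no other probe set could be set beside it.

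RPL22, the usual copy that binds RNA at the surface of the large subunit, had 18473, 17666 and 16719 in boars and 16447, 18204 and 16734 in barrows. Its groups overlapped, with a log2 difference of -0.041 (95% CI -0.19 to 0.10, limma adjusted p = 0.87). Within each array, the log2 ratio of RPL22L1 to RPL22 was -0.97, -0.97 and -0.85 in boars and -1.10, -1.33 and -1.16 in barrows. The ratio was thus lower in every barrow pool than in any boar pool, by 0.27 in the means. This describes unequal change of the signals of both probe sets and not the ratio of the transcripts, and since RPL22L1 was picked for its difference it was not tested.

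**Figure D1:**
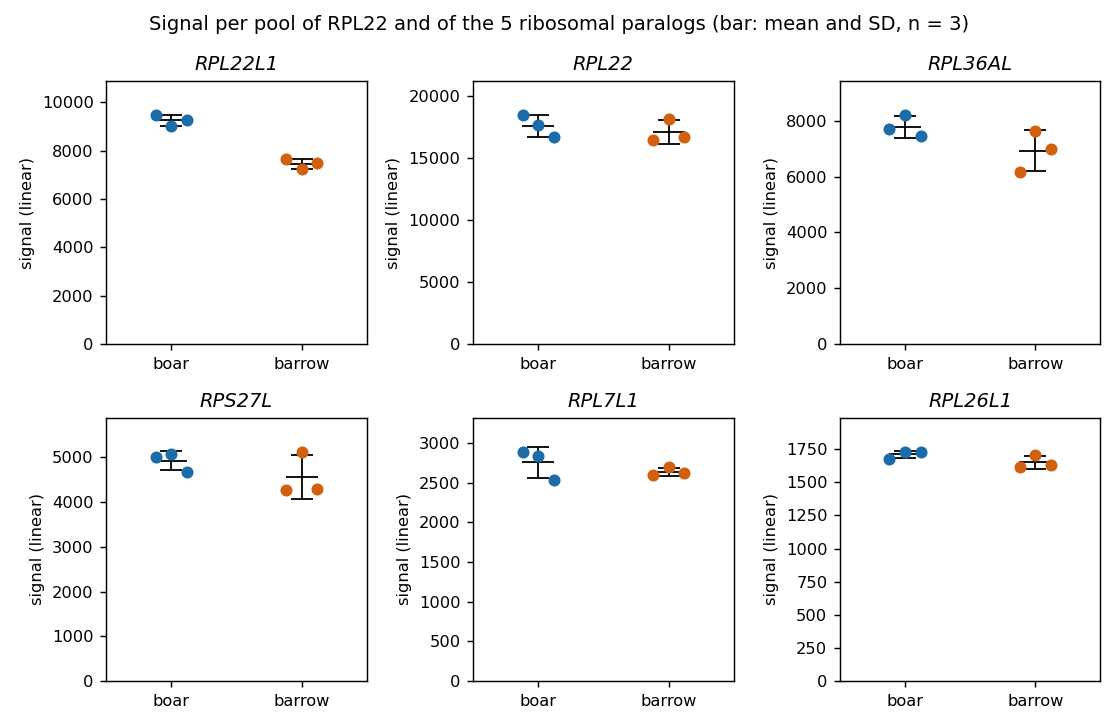
Signal per pool (linear scale, from 0) of RPL22L1, of RPL22 and of the 4 other paralogs in 3 boar pools (blue) and 3 barrow pools (orange), with the mean and SD. The barrow pools of RPL22L1 lie at 7242 to 7648, below all boar pools at 9003 to 9451, while the groups overlap for the other 5 genes.

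The 4 other paralogs also had differences below 0, but none passed the test. RPL36AL, the autosomal copy of RPL36A, had 7686, 8190 and 7440 in boars and 6154, 7642 and 6989 in barrows. Its lowest value was barrow pool 1, and barrow pool 2 lay within the boar range. The difference was -0.17 (95% CI -0.36 to 0.018, limma adjusted p = 0.47). RPS27L, a paralog of RPS27 known as a p53 target, had 5017, 5080 and 4682 in boars and 4262, 5119 and 4302 in barrows. Barrow pool 2 was the highest of all 6, and the difference was -0.12 (95% CI -0.30 to 0.072, limma adjusted p = 0.65). RPL7L1, which acts in making the large subunit, had a difference of -0.062, and RPL26L1, the paralog of RPL26, had -0.051 (limma adjusted p = 0.82 and 0.85). Over the 5 paralogs the median difference was -0.12, against -0.011 over the 56 tested core members. The paralogs were dimmer, with a median signal of 4730 against 17106. Their median size of the difference regardless of sign, 0.12, was that of all tested probe sets, also 0.12. These were 5 genes picked by symbol, 1 of which passed, and the difference between paralogs and core was not tested. RPS19BP1 had means of 622 ± 62.3 and 613 ± 56.1 (SD, n = 3 each) and a difference of -0.018.

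In the small subunit, 23 of 24 core members were tested, 12 with a difference above 0 and 11 below, and 0 passed the test. The median was 5.3e-05 and the range -0.091 to 0.082. RPS6, the target of the S6 kinases that mTOR switches on, had 18196, 17540 and 17067 in boars and 17725, 18075 and 17004 in barrows. The groups lay over each other, with equal means of 17601 and a 95% CI of -0.13 to 0.13 on the log2 scale. RPSA, also known as the laminin receptor, had 18409, 19084 and 16458 in boars and 20706, 18456 and 17933 in barrows. The highest value was barrow pool 1 and the lowest boar pool 3, with a difference of 0.082 (95% CI -0.089 to 0.25, limma adjusted p = 0.74).

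RPS10, a protein of the small subunit head, was the only small subunit member whose groups did not overlap. It had 15942, 16007 and 15517 in boars and 15142, 14595 and 14977 in barrows. The difference was small, -0.086 (95% CI -0.21 to 0.038, limma adjusted p = 0.59). RPS19, the first gene found mutated in Diamond-Blackfan anaemia, had a difference of 0.022 and RPS18, which sits at the top of the head, 0.072 (limma adjusted p = 0.94 and 0.74). RPS4X, the X-linked core protein whose paralog is Y-linked in humans, had -0.031 (limma adjusted p = 0.89). RPS13 and RPS12 were among the steadiest members: RPS13 had 17130, 17722 and 17569 in boars and 17640, 17397 and 16959 in barrows, a coefficient of variation of 1.74% over the 6 pools, and RPS12 had 1.99%.

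In the large subunit without its stalk, 30 of 31 core members were tested, 10 with a difference above 0 and 20 below, and 0 passed the test. The median was -0.016 and the range -0.11 to 0.13. RPL34 was the member with the highest difference. Its signals were 12925, 13678 and 13007 in boars and 14793, 14457 and 14212 in barrows. The groups did not overlap, and the difference was 0.13 (95% CI 0.0054 to 0.26, limma adjusted p = 0.39, unadjusted p = 0.043). Its other tested probe set, at signals of at most 152, went the other way, with -0.16 (limma adjusted p = 0.81), and with the mean of its probe sets the difference was -0.011.

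RPL11 and RPL5 form a particle with 5S ribosomal RNA and, when ribosome assembly is disturbed, bind the p53 regulator MDM2. RPL11 had 19528, 21599 and 18962 in boars and 22381, 21584 and 21043 in barrows. Boar pool 2 lay within the barrow range, and the difference was 0.12 (95% CI -0.029 to 0.26, limma adjusted p = 0.53). RPL5 had 22104, 22990 and 22805 in boars and 22953, 21392 and 22361 in barrows, with a difference of -0.026 (limma adjusted p = 0.91). The partners thus differed in sign, and both intervals contained 0.

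RPL21, with 15355, 15428 and 14646 in boars and 15963, 16149 and 16099 in barrows, was the other core member that was higher in every barrow pool. Its difference was 0.086 (95% CI -0.039 to 0.21, limma adjusted p = 0.60). RPL24, which forms a bridge to the small subunit, was lower in every barrow pool (16315 to 16949, against 16981 to 17841 in boars), with a difference of -0.060 (limma adjusted p = 0.74). With RPL22L1 and RPS10 this makes 5 members without overlap, 3 lower and 2 higher in barrows, or 8.06% of the 62, where the groups did not overlap in 18.1% of all tested probe sets (9.76% lower and 8.38% higher). RPL24 was named after its values were seen. Its other tested probe set, at signals of at most 450.5, went the other way, with 0.066 and overlapping groups (limma adjusted p = 0.92).

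Among the other large subunit members, RPL23 had -0.11 and RPL14 -0.11 (limma adjusted p = 0.57 for both). RPL10A, the protein of the flexible stalk at the exit site for transfer RNA, had -0.094 and RPL19, which makes another bridge between the subunits, 0.066 (limma adjusted p = 0.63 and 0.74). RPL27A was as steady as RPS13 on the log2 scale, with all 6 pools between 16992 and 17757 and a coefficient of variation of 2.05%. The intervals of these 5 members all contained 0.

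The stalk of the large subunit, made of RPLP0 and the acidic proteins RPLP1 and RPLP2, recruits the elongation factors that drive translation. RPLP0 had 20552, 20216 and 19489 in boars and 21302, 19365 and 20519 in barrows, with a difference of 0.021 (95% CI -0.11 to 0.15, limma adjusted p = 0.93). RPLP1 had 15323, 15521 and 14581 against 15643, 15401 and 14553, with 0.0052 (95% CI -0.13 to 0.14). For both, the pools of the groups were interleaved. RPLP2 varied more than any other tested member: its signals were 9011, 9004 and 11526 in boars and 7572, 9988 and 9446 in barrows, a coefficient of variation of 13.8%. Boar pool 3 was high and barrow pool 1 low. The difference was -0.13 with a wide interval (95% CI -0.39 to 0.13, limma adjusted p = 0.73).

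**Figure D2:**
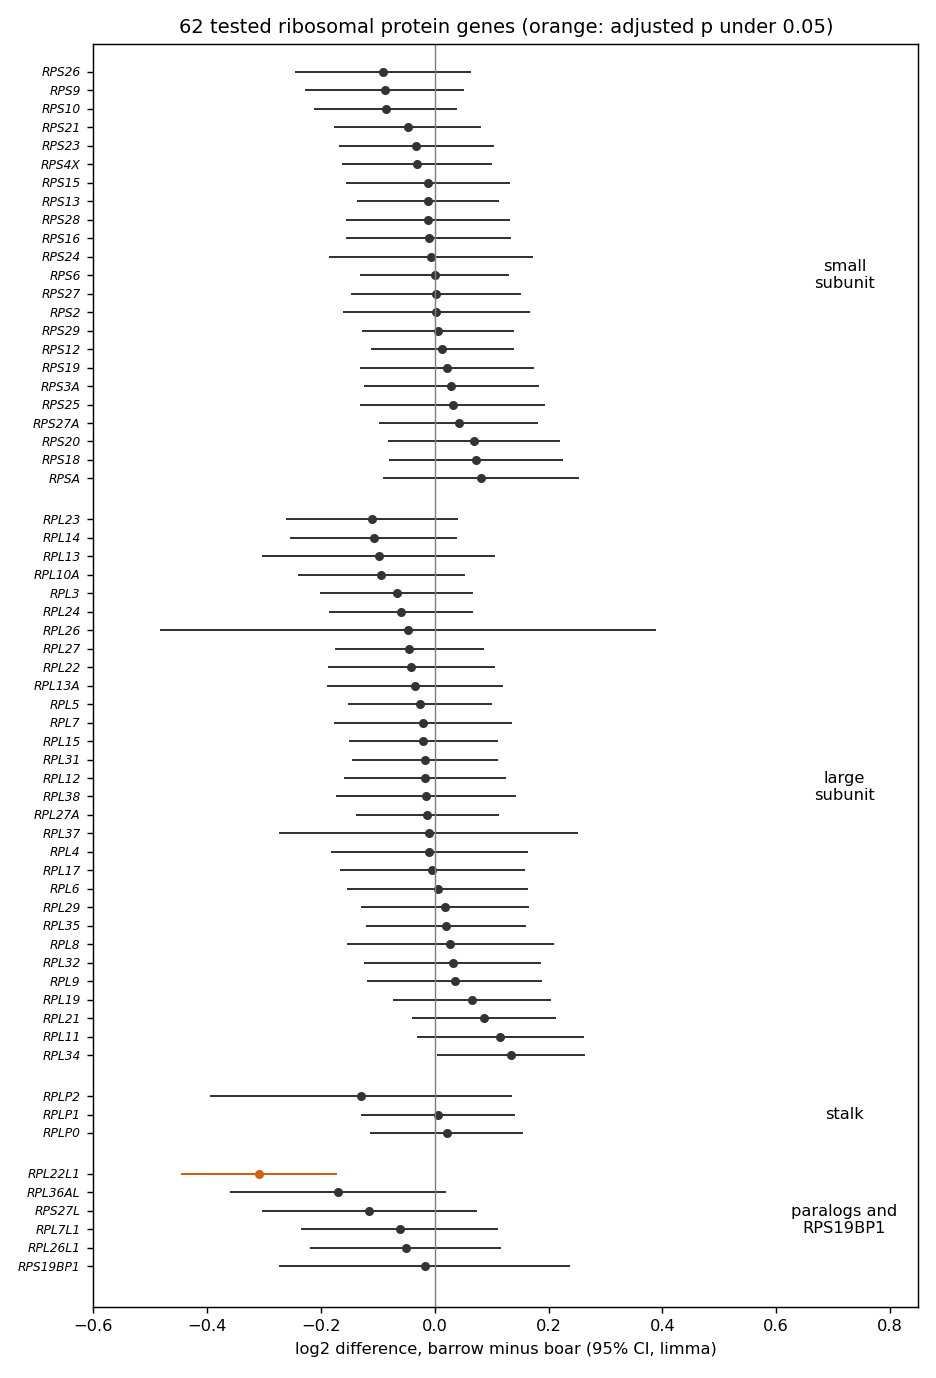
Log2 difference, barrow minus boar, of each tested member with its 95% CI from limma, ordered within the small subunit, the large subunit, the stalk and the paralogs with RPS19BP1. RPL22L1 (orange, -0.31) is the single member past the threshold, and the core members lie between -0.13 and 0.13.

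The intervals bound how far the groups can differ on this scale. For 58 of the 62 tested members the 95% CI lay inside a 1.25-fold difference in either direction (0.322 on the log2 scale), against 24.8% of all tested probe sets, a bound chosen after the values were seen. The 4 others were RPL22L1, RPL36AL, RPLP2 and RPL26. For all 62 the interval lay inside a 1.5-fold difference, against 76.9% of all tested probe sets. Inside a 1.1-fold difference it lay for only 5 of the 62, against 0.0625% of all tested probe sets. A difference of more than 1.1-fold is thus not excluded for most members.

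The narrow intervals go with high signals. Of the 64 members, 52 had a mean signal of 10000 or more, where 1.66% of all tested probe sets lie, 7 lay between 1000 and 10000, and 5 lay under 1000. The highest member signal was 28912, for RPS18, and the highest signal of any probe set was 27591 to 32517 on the 6 arrays. Signals this near the top of the scale can be compressed, so that a true difference is shown too small, and how far this was so here was not tested. Among the 183 other probe sets at or above 10000, 3 rose and 0 fell in barrows, their median difference was 0.042, and their median within-group SD was 0.080. The 52 bright members had a median difference of -0.0081 and a median within-group SD of 0.071 (0.15 over all tested probe sets). The difference between these sets was not tested.

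**Figure D3:**
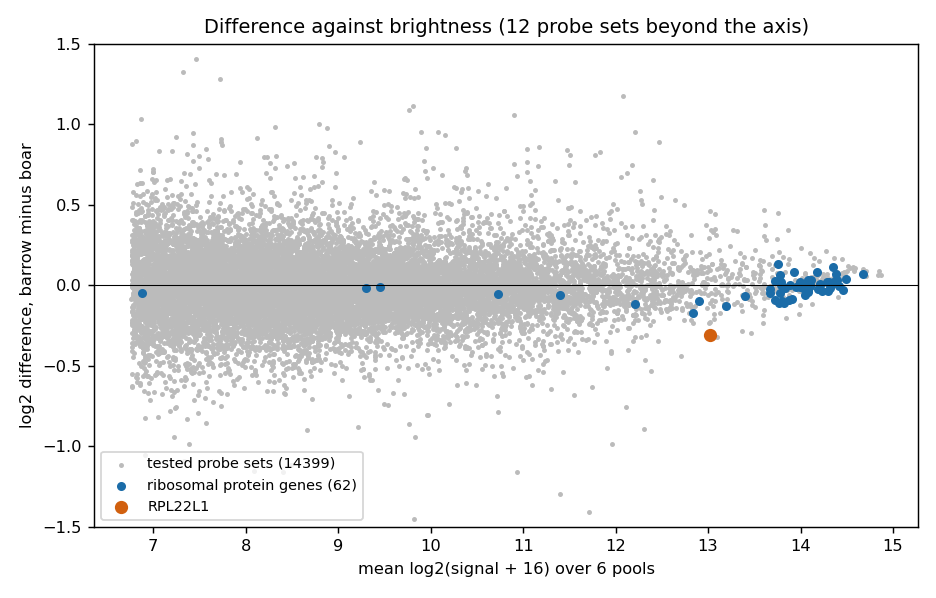
Log2 difference, barrow minus boar, against mean log2(signal + 16) for all 14399 tested probe sets (grey), the 62 tested members (blue) and RPL22L1 (orange), with 12 probe sets beyond the axis. Most members sit at the bright end, where 52 have a mean signal of 10000 or more, and RPL22L1 lies below the others.

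The 5 dim members were RPL37, RPS19BP1, RPL26, RPL30 and RPS15A. RPL30 had 99.8, 89.2 and 119 in boars and 92.6, 61.0 and 56.4 in barrows, and RPS15A lay between 17.7 and 43.1. Both fell below the filter, whose lowest mean signal was 92.7, and were not tested. RPL26 passed it by little, with 97.1, 88.9 and 129.5 in boars and 97.6 to 103 in barrows, and had a difference of -0.046 with the widest interval of all tested members (95% CI -0.48 to 0.39, limma adjusted p = 0.96). RPL37 had 696.7, 699.9 and 658 in boars and 600.5, 652.0 and 800.6 in barrows. Whether these probe sets stand above background is not known, since detection calls were not used here.

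Members deviated together from pool to pool, in both groups. Each gene was set against its own mean over the 6 pools. In boar pool 2, 55 of 62 members were above their mean (median deviation 0.051 on the log2 scale) and in barrow pool 1, 45 (0.041). In boar pool 3, 16 were above (median -0.052), in barrow pool 2, 21 (-0.023) and in barrow pool 3, 11 (-0.041). Boar pool 1 was in between, with 32 (0.0094). High and low pools thus occurred in both groups at the authors' scaling. Averaged over members, the deviation was 0.0097 ± 0.043 in boars and -0.0097 ± 0.037 in barrows (SD over pools, n = 3 each), so the spread over pools was larger than the step between the groups.

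The 183 other bright probe sets showed part of this pattern. Of these, 74.9% were above their mean in boar pool 2, 78.1% in barrow pool 1 and 23.5% in boar pool 3, but 48.1% in barrow pool 3, where few ribosomal members were. Its part in the members' pattern was not tested. The pattern also depended on scaling. Under quantile normalization, 45, 42 and 33 members were above their mean in the boar pools and 24, 26 and 17 in the barrow pools. The pool medians were then 0.034, 0.016 and 0.0058 in boars and -0.016, -0.0062 and -0.030 in barrows, so every boar pool lay above every barrow pool. Under cyclic loess, 45, 46 and 33 members were above in boars and 37, 13 and 16 in barrows, with medians of 0.031, 0.024 and 0.0053 against 0.015, -0.051 and -0.034, and barrow pool 1 lay within the boar range. The span of pool medians shrank from 0.10 to 0.064 with quantile normalization and 0.083 with loess.

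The lean of the whole family followed the scaling too. At the authors' scaling, 24 members had a difference above 0 and 38 below. With quantile normalization this became 11 and 50, with a median of -0.039, and with cyclic loess 8 and 54, with -0.048. With array weights it was 31 and 31, with a median of 0.0046. RPL22L1 was called under all 4 and no other member was called under any. When a pool was left out, the median ran from -0.038 (without boar replicate 3) to 0.0067 (without boar replicate 2). It was above 0 with array weights and without boar replicate 2 or barrow replicate 3, and below 0 in the other settings. The sign of the family median thus leaned below 0 but changed with the setting, and it was not tested.

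**Figure D4:**
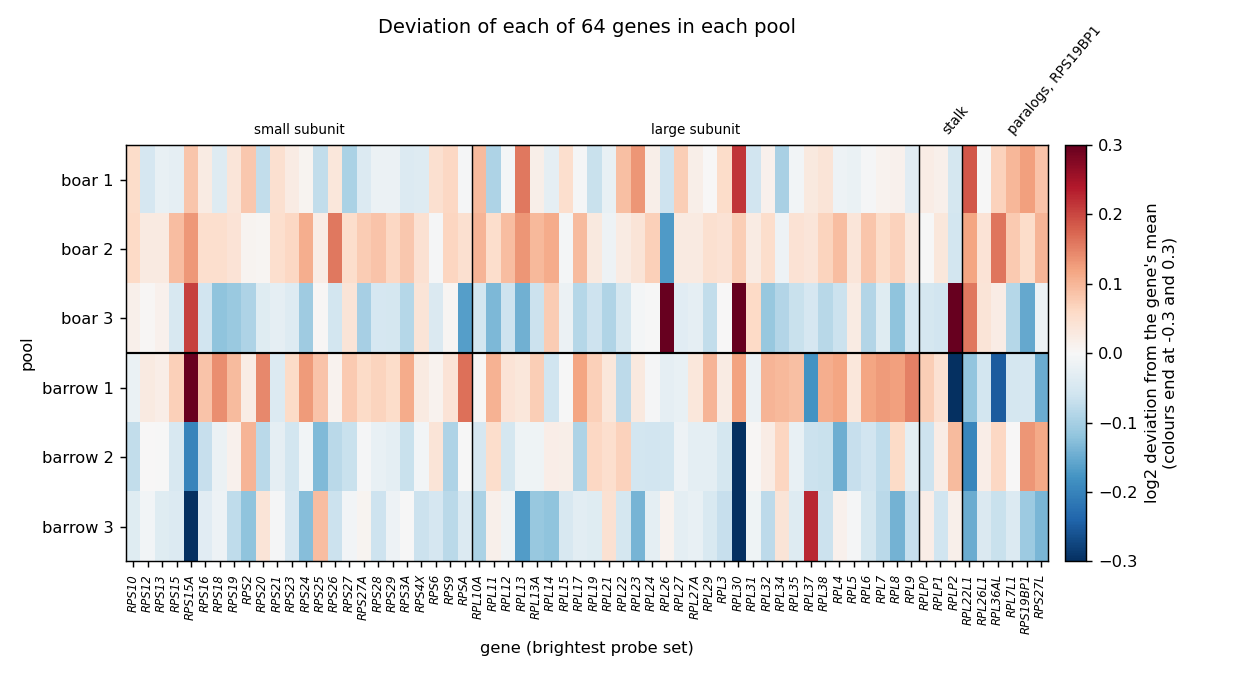
Log2 deviation of each of the 64 members from its own mean, in each pool (rows) and gene (columns), red above and blue below, with colours ending at -0.3 and 0.3. Boar pool 2 is above the mean for 55 of 62 tested members and barrow pool 3 for 11, while RPL22L1 is red in all boar pools and blue in all barrow pools.

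Members used as reference genes showed what this spread amounts to. Over all 6 pools the coefficient of variation of the signal was 3.59% for RPLP0, 5.56% for RPL13A, 5.56% for RPL32, 6.17% for RPS18 and 6.74% for RPL4. RPL4 had 15652, 16845 and 15128 in boars and 17152, 14290 and 15961 in barrows, so that its highest and lowest pools were both barrows. The log2 differences of the 5 lay between -0.034 and 0.072, with limma adjusted p from 0.74 to 0.98. RPL13A, which leaves the ribosome in interferon-treated myeloid cells, had -0.034 and RPL32 0.032. Averaging all probe sets of a gene moved RPL13A to -0.28 (limma adjusted p = 0.49), through further probe sets at signals of at most 103, both below the filter. It also moved RPL32 to 0.10 and RPLP0 to 0.097 (limma adjusted p = 0.66 and 0.71).

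Of the 64 members 24 had more than 1 probe set, and for 21 at least 1 further probe set was tested, 25 in all. The further probe sets were mostly much dimmer, with a median signal of 456, and 4 lay above 10000. None of the 25 passed the test, and 1 had an unadjusted p under 0.05 (limma), where 12.2% of all tested probe sets did. Of the 25, 13 had the opposite sign to the brightest probe set of their gene. The median difference of the 25 regardless of sign was 0.069, against 0.032 for the brightest probe sets. RPS25 stood out, with 628, 754 and 602 in boars and 817, 828 and 862 in barrows in its further probe set, a difference of 0.34 (limma adjusted p = 0.21). The groups did not overlap there, while its bright probe set had 0.032 (limma adjusted p = 0.91). Further probe sets of RPS27 (-0.21) and RPL27 (-0.047) were lower in every barrow pool (limma adjusted p = 0.47 and 0.81). The groups did not overlap in 18.1% of all tested probe sets. RPL27, RPL31 and RPS18, which had further probe sets above 10000, gave differences of -0.047, 0.019, -0.0034 and 0.051 in these, the last 2 for RPS18. Their brightest probe sets had -0.044, -0.018 and 0.072, so the sign differed for RPL31 and for the -0.0034 of RPS18. Ribosomal protein genes have many near-identical processed copies in mammalian genomes, and which of them a probe set also measures is not given in the sources used here.

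**Figure D5:**
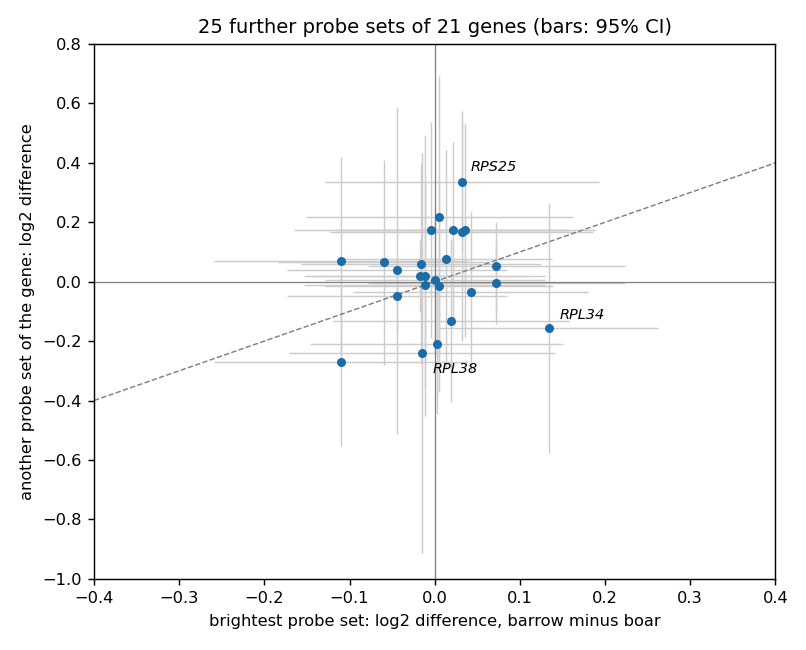
Log2 difference, barrow minus boar, of each of 25 further probe sets (vertical) against that of the brightest probe set of the same gene (horizontal), with 95% CI from limma and a dashed line of equal values; the axes differ in scale. RPS25 has 0.34 against 0.032, and 13 of the 25 lie on opposite sides of 0.

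In the other lists of the translation machinery 0 genes passed the test, where 1.16% of all tested probe sets did, so that lists of this size would hold few calls at that share. FAU, the source of the small subunit protein S30 as a fusion with a ubiquitin-like protein, and RACK1, a scaffold on the small subunit, had -0.097 and -0.042 (limma adjusted p = 0.58 and 0.86). Of 13 elongation factors and other products of mRNAs with a pyrimidine tract, 0 passed (limma, and 0 at an unadjusted p under 0.05), with a median of 0.011. EIF3E, a subunit of the initiation factor that binds the small subunit, had 8899, 8881 and 8776 in boars and 8299, 7826 and 8140 in barrows. Its groups did not overlap, with a difference of -0.13 (limma adjusted p = 0.42), and EEF1A1, which brings aminoacyl transfer RNA to the ribosome, had 0.14 (limma adjusted p = 0.62).

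Of 24 initiation factors 0 passed (limma, 3 at an unadjusted p under 0.05, or 12.5%, against 12.2% of all tested probe sets), with a median of -0.032. The groups did not overlap for 8 of the 24, or 33.3%, 4 in each direction, against 18.1% of all tested probe sets. EIF4G1, the scaffold of the cap-binding complex, had 1593, 1569 and 1517 in boars and 2056, 1753 and 2072 in barrows. It was higher in every barrow pool, with 0.32 (limma adjusted p = 0.13). EIF3D, a cap-binding subunit of EIF3, was lower in every barrow pool, with -0.17 (limma adjusted p = 0.37). Of 28 tested genes of ribosome making in the nucleolus 0 passed (limma, 5 at an unadjusted p under 0.05, or 17.9%, against 12.2%), with a median of -0.023, and the groups did not overlap for 4, or 14.3%. LTV1 and RRP9, which act in assembling the small subunit, had 0.35 and 0.34 (limma adjusted p = 0.25 and 0.28). The 3 others of the 5, named after their values were seen, had differences below 0: POLR1B, a subunit of RNA polymerase I, had -0.68, GAR1, a protein of the particles that modify ribosomal RNA, had -0.39, and PES1, which acts in making the large subunit, had -0.32 (limma adjusted p = 0.28, 0.41 and 0.37).

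Of 9 tested genes of nutrient control of translation 0 passed (limma, and 0 at an unadjusted p under 0.05), with a median of -0.042. The groups did not overlap for 3, or 33.3%, 1 lower and 2 higher in barrows, against 18.1% of all tested probe sets. RHEB, the small GTPase that switches on mTOR, had 2938, 2791 and 2600.3 in boars and 2582, 2416 and 2408 in barrows, a difference of -0.17 (limma adjusted p = 0.42). Its groups did not overlap. EIF4EBP2, a repressor of cap binding that mTOR inactivates, had 0.14 (limma adjusted p = 0.54). The ribosome of mitochondria, built from other proteins, was measured through 58 genes: 0 passed (limma, 3 at an unadjusted p under 0.05, or 5.17%, against 12.2%), with a median of 0.0041 and differences from -0.49 for MRPL50 to 0.68 for MRPL24 (limma adjusted p = 0.13 and 0.32). MRPL and MRPS genes were much dimmer, with a median signal of 768 against 16445 for the cytosolic members, and their median within-group SD was 0.13.

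Some markers of other cell types were lower in barrows, as RPL22L1 was, and others were higher. The summed signal of 6 of 6 endothelial markers was 13245 to 14060 in boars and 12341 to 12499 in barrows. Most of each sum was PECAM1, with 7418 to 7965 in boars and 6840 to 6992 in barrows. All 6 had differences below 0, with the angiopoietin receptor TEK the 1 that fell (-0.47, limma adjusted p = 0.047). The others had -0.405 for KDR, -0.17 for TIE1, -0.14 for PECAM1, -0.053 for VWF and -0.00092 for CDH5 (limma adjusted p from 0.41 to 0.998). CDH5 was thus nearly equal in the groups. The sums of 6 of 9 macrophage markers overlapped, at 7919 to 10284 and 7511 to 8894, but 5 of the 6 had differences below 0, with a median of -0.28, and 3 were lower in every barrow pool. These were the complement gene C1QA with -0.44, the adaptor TYROBP with -0.39 and AIF1 with -0.33 (limma adjusted p = 0.13, 0.14 and 0.265), and C1QA passed with the replicate block (limma adjusted p = 0.035). The other macrophage markers had 0.15 for CD163, -0.018 for MRC1 and -0.23 for C1QC (limma adjusted p = 0.69, 0.97 and 0.525).

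The sums of 4 of 6 fibroblast markers overlapped, at 25430 to 28300 and 21940 to 28670, as did those of 3 of 4 smooth muscle markers, at 12519 to 13717 and 9142 to 12770. In each of these lists 1 gene was lower in every barrow pool. The matrix gene DPT had -0.32 (limma adjusted p = 0.060), which passed once the replicate block was added (limma adjusted p = 0.041). The smooth muscle actin ACTA2 had -0.32 (limma adjusted p = 0.32). The other fibroblast markers had 0.26 for COL3A1, 0.10 for LUM and -0.033 for DCN. The other smooth muscle markers had 0.26 for CNN1 and -0.01 for TAGLN (limma adjusted p from 0.70 to 0.98 over these 5). The medians of the 2 lists were 0.035 and -0.01. For 6 of 8 lymphocyte markers the sums were 392 to 641 and 377 to 460, and the 3 that were tested had differences below 0.

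The sums of 6 of 8 adipocyte markers overlapped, at 71286 to 76532 and 68387 to 74818, with 3 differences above 0 and 3 below. LEP, the adipocyte hormone leptin, rose by 0.58 (limma adjusted p = 0.021). Of 4 skin and gland markers 2 were measured, with sums of 128 to 204 in boars and 357 to 1604 in barrows, the opposite direction to RPL22L1. In barrows most of each sum was the gland gene PIP, with 207, 1508 and 218.5, and in boars most was KRT8. PIP had 13.7, 3.83 and 29.9 in boars and rose by 3.84 (limma adjusted p = 0.018). With boar signals this near the pseudocount of 16, the size of that rise depends on the pseudocount. KRT8, the other marker measured, had a difference of -0.2 (limma adjusted p = 0.77). The marker genes given with a difference were named after their values were seen. The part of cell makeup in the RPL22L1 difference was not tested.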

How the data were processed

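The authors deposited 1 table of signal intensity values per probe set and array, made with MAS5 per the submitters' processing notes (version not given in the sources used here). The values of each array had nearly the same trimmed mean. Precision is limited by having 6 arrays. Without 124 control probe sets, 23999 remained. Names came from the platform annotation, and all 64 members were found under the same symbol in RefSeq (Sscrofa11.1).

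Values were taken as log2(signal + 16), and the upper 60% of probe sets by mean (14399) were compared by limma 3.58.1 in R 4.3.3 (lmFit, eBayes with an intensity trend, 2-sided, Benjamini-Hochberg over all probe sets tested, threshold 0.05). The fit was tested on simulated data. Deviations from the group means correlated at 0.12, 0.17 and 0.26 for boar and barrow pools of the same number. For pools of different numbers the correlations were -0.19 to -0.011. The deviations of a gene sum to 0 in each group, so positive values for same numbers push those for different numbers below 0. The labels give only a replicate number, so what pools of the same number share is not known. The differences, intervals and p-values given are from the fit without the replicate number unless a block is named. Alternatives were another pseudocount, filter, scaling, trend, array weights, a replicate block, leaving out each pool, and the mean of a gene's probe sets.

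Named members were those past the threshold, the 6 per direction with the smallest p, stalk, signalling, disease and reference genes, paralogs, the extremes of range over pools, and genes whose probe sets disagree past the threshold. In other lists, genes past the threshold or the 2 with the smallest p were named. EIF3D, LTV1 and RRP9 came in this way. The members and lists were chosen with earlier results of these data known. Promoter and protein sequences were not analysed here.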

Additional observations from a re-analysis of the deposited data

How the results depend on the processing

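With no filter, without the intensity trend and in 5 of the 6 fits that leave out a pool, 0 members were called lower (0 to 1 over those 6), and with limma 0 members were called higher under any of the 16 alternatives. The log2 difference of RPL22L1 was -0.31 with no filter (limma adjusted p = 0.098) and -0.31 without the trend (limma adjusted p = 0.25), and -0.33 to -0.29 when a pool was left out. Over all tested probe sets, the 167 calls became 96 with no filter, 32 without the trend, 425 with array weights and 338 with the replicate block, and ran from 24 to 291 when a pool was left out. The median difference of the members moved by less than the spread over pools in every alternative. The replicate block changed no other call among the members: RPL22L1 kept its call (limma adjusted p = 0.027) and 0 others passed. Of the 29 named members, 16 kept the sign of their difference in all alternatives, and the signs of the 13 others, all without a call, changed in at least 1. Detection calls were not used, so for dim members a level above background is not shown, and bright members may be compressed.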

Other observations

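The array also carries 5 control probe sets for the RNA of the ribosome, outside the comparisons above. The brighter of the 18S controls had 1551, 1868 and 2289.9 in boars and 1927, 1673 and 2359 in barrows, a log2 difference of 0.065 (exact permutation p = 0.7, 2-sided). One 28S control had 1463, 1606 and 2378 against 1668, 1345 and 1439.7, with -0.26 (exact permutation p = 0.4), and the other 2688, 2098 and 2177 against 2636, 2106 and 2057, with -0.035 (exact permutation p = 0.6). The dimmer 18S and the 5S controls, at 184 or less in all pools, had 0.018 and -0.15 (exact permutation p = 1.0 and 0.5). With 3 pools a group, this test cannot give a p below 0.1. All 5 controls overlapped between the groups. How far these signals follow the amount of ribosomal RNA was not tested.

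The further probe set of RPL38, a small protein of the large subunit, varied with the replicate number. It had 1255, 2221 and 1234 in boars and 884, 2172 and 1078 in barrows, so the pool numbered 2 was the highest in each group, 1.98-fold above the others in the mean. Within each number the barrow pool was the lower, with a group difference of -0.24 (95% CI -0.91 to 0.43). By the size of that gap it ranked 31 of 14399 tested probe sets, whose median gap was 0.12 on the log2 scale, against 0.98 here. Its bright probe set showed no such step, with 17437 and 15878 in the pools numbered 2 and 15705 to 17941 in the others. This probe set was picked after its values were seen, so no test is given.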
